A study of Mus musculus with 15 samples.

Results

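The mouse pancreatic tumour cell clones 2838c3 and 2699c4 are described here beside the other clones of an ATAC-seq series. They are 2 of 13 libraries with counts, and the pair was selected on the measured values: of all pairs made of 1 T cell high and 1 T cell low clone, these libraries had the most alike accessibility profiles. Comparisons of the pair with the other 11 libraries are therefore descriptions and carry no p-value. ATAC-seq uses a transposase that inserts sequencing adapters into open DNA, and a region with many reads had open chromatin.

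All libraries came from untreated C57BL/6 material: each clone was implanted subcutaneously, and 3 weeks later 50000 tumour cells were sorted for its library. Each clone is classed by the T cell content of the tumours it forms. Clone 2838c3 is classed T cell high, as are 5 of the others (6421c2, 6499c4, 6555c3, 6620c1 and 7160c2). Clone 2699c4 is classed T cell low, as are the remaining 6 (6419c1, 6419c5, 6422c1, 6499c3, 6556c3 and 6694c2). Another 2 clones, classed as intermediate, are not analysed here. Each clone is 1 library from implanted tumour cells, so a property of the clone, of its tumour and of its library cannot be told apart.

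Open chromatin marks regulatory DNA. Promoters of widely used genes are open in most cells, whereas distal elements, which include enhancers, differ strongly between cell states. In pancreatic cancer, epithelial tumour cells can lose junction and surface genes as they take on mesenchymal traits. Repressors such as ZEB1, SNAI1 and SNAI2 bind E-box sequences of the CAGGTG type in that process, and WNT ligands, axon guidance genes and SOX factors take part in how such cells are patterned.

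The counts cover 67945 peaks merged over the samples. The total in peaks was 3985297 counts in 2838c3, the third highest total, and 3081734 in 2699c4, the sixth highest total, within a range of 968296 to 7369228. Promoter peaks took 33.0% of the counts in 2838c3 and 37.4% in 2699c4, inside the range of 31.5% to 39.7% in the other 11. A stretch of chromosome 15 with 66 peaks was left out, because it held 2.05% of the counts of 2699c4 and at most 0.0909% of those of any other library. As a check of cell type, the promoter or gene-end peaks of Cdh1 (E-cadherin) had 19.1 CPM in 2838c3 and 26.2 CPM in 2699c4, within the 14.9 to 35.6 CPM of the others (CPM, read counts scaled to a common library size). The keratin genes Krt8 and Krt18 were also within the range of the others in both clones. Krt19 had 19.4 CPM in 2838c3, below the 29.3 to 89.7 CPM of the others, and 59.0 CPM in 2699c4. Epcam had no such peak. Of 28 T and NK cell markers, 25 had no promoter or gene-end peak in the table, Cd3e and Cd3d among them. The 6 tested peaks of pan-leukocyte markers summed to 81.2 CPM in 2838c3 and 68.4 CPM in 2699c4, beside 71.2 to 130 CPM in the others. Clone 2699c4 was above every other library in the sums of 3 other marker lists: T and NK cells (82.3 CPM, others of the 11 25.3 to 62.9 CPM, 36.6 CPM in 2838c3), endothelial cells (75.7 CPM, 30.9 to 66.0 CPM, 51.2 CPM) and acinar and islet cells (87.6 CPM, 41.1 to 77.3 CPM, 71.9 CPM), each over 3 peaks. The part of such cells in the results was not tested.

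Profiles were compared over 59198 peaks that passed a filter on low counts, as log2 CPM centred on the mean of the 13 libraries. The correlation between 2838c3 and 2699c4 was r = 0.323 across peaks. It ranked second of all 78 pairs of libraries, after 2 T cell high clones, 6499c4 and 6555c3 (r = 0.340), and first of the 42 pairs across the T cell classes. The next pairs across classes, just outside the choice, were 2838c3 with 6694c2 (r = 0.183) and 2838c3 with 6422c1 (r = 0.118). Peaks are not independent of each other, and centring on a common mean makes most pairs slightly negative, so r is a description of these libraries. Within its own class 2838c3 had r below 0 with all 5 other T cell high clones, from -0.43 with 6555c3 to -0.07 with 6620c1. Clone 2699c4 ranged from -0.26 with 6419c5 to 0.08 with 6694c2 in its class. Clones 6419c1 and 6419c5 had r = 0.191 with each other, and 6499c3 and 6499c4 had -0.16. The r of the pair was 0.251 over promoter and gene-end peaks and 0.341 over distal peaks.

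**Figure D1:**
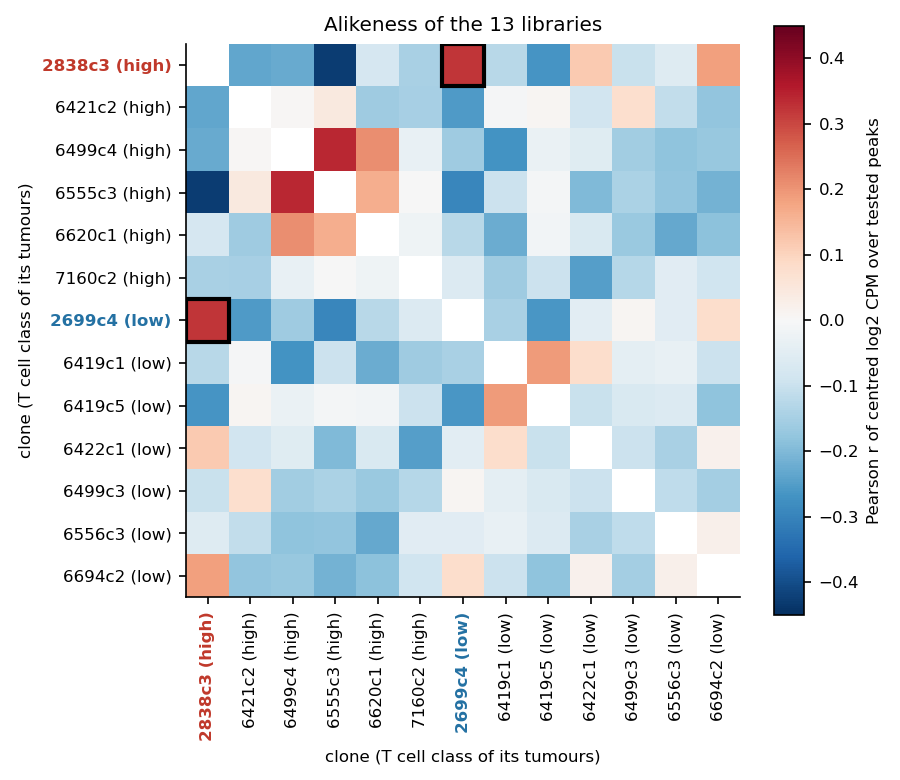
Pearson r between every 2 of the 13 libraries, across 59198 tested peaks of centred log2 CPM (colour scale); rows and columns are clones, with the T cell class of their tumours, and black frames mark 2838c3 with 2699c4. The framed cells (r = 0.323) stand out from the other cells across classes, of which the next is 0.183.

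A comparison with no shared libraries sets each of the 2 clones against its own class. Clone 2838c3 was at least 2-fold above the mean of the other 5 T cell high clones at 7997 peaks and at least 2-fold below it at 7904. Clone 2699c4 was at least 2-fold above the mean of the other 6 T cell low clones at 4363 peaks and below it at 6011. Both clones were above at 1713 peaks and both below at 1777. They moved in opposite directions by these folds at 417 peaks (2838c3 up) and 372 peaks (2838c3 down). Across peaks the differences had r = 0.295, so the likeness was partial and most departures of either clone were its own.

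**Figure D2:**
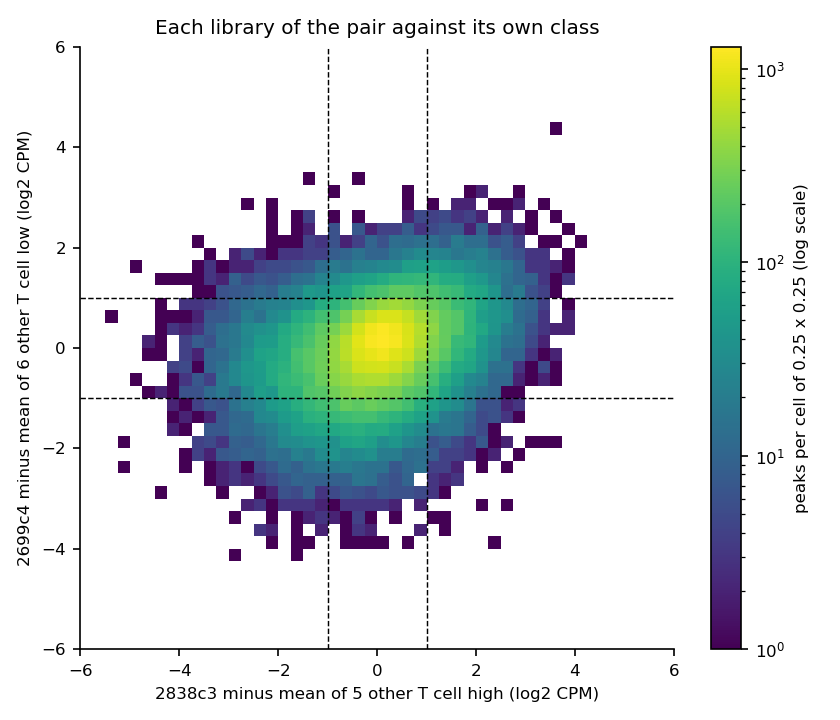
Difference in log2 CPM of 2838c3 from the mean of the other 5 T cell high libraries (x axis) and of 2699c4 from the mean of the other 6 T cell low libraries (y axis), as the number of peaks per cell of the grid; dashed lines mark 2-fold. The cloud tilts upward (r = 0.295), with 1713 peaks beyond 2-fold in the upper right and 1777 in the lower left, against 417 and 372 in the other corners.

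A peak is called shared here where both clones lay above, or both below, every one of the other 11 libraries and the fitted change of the pair over the 11 was at least 2-fold. Shared higher peaks numbered 1254, which is 2.12% of the tested peaks, and shared lower peaks 1336, which is 2.26%. These shares are the background for counts of peaks, and that for genes is given with the gene lists. Clone 2838c3 alone lay above all 11 at 7209 peaks, of which 27.4% were also above in 2699c4. Clone 2699c4 lay above all 11 at 5323 peaks, of which 37.1% were also above in 2838c3. On the low side the numbers were 5295 peaks for 2838c3 (29.7% shared) and 4872 for 2699c4 (32.3% shared). One clone was above and the other below all 11 at 132 and 100 peaks. By the same call, with 1 clone of the pair left out, the other gave more peaks: 2320 higher and 3866 lower for 2699c4, and 3710 higher and 4274 lower for 2838c3.

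The shared gains were almost entirely distal, meaning over 1 kb from a gene end and outside a promoter window. Of the higher peaks 96.3% were distal, and of the lower peaks 87.9%, beside 77.1% of all tested peaks. Promoter windows (250 bases before to 50 bases after a start site) held 18 higher and 79 lower peaks, which is 0.197% and 0.864% of the 9139 tested promoter peaks. Peaks at the ends of other genes gave 29 higher and 83 lower of 4402. Shared higher distal peaks lay a median of 41.3 kb from the nearest gene end, beside 25.1 kb for all distal peaks and 23.6 kb for the lower ones. In all, 28.9% of the higher peaks were over 100 kb from any end of a protein-coding gene, against 13.7% of all tested peaks. Only protein-coding genes were used for these distances, and a peak deep inside a long gene also counts as far. At the higher peaks the median level was 19.4 CPM in 2838c3 and 16 CPM in 2699c4. The middle value of the other 11 had a median of 6.00 CPM there, beside 9.14 CPM over all tested peaks. The lower peaks had medians of 2.92 and 2.79 CPM in the 2 clones, beside 9.37 CPM for the middle value of the other 11. In both sets the gap between the pair and the others follows from the call.

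Shared gains were also more frequent where genes are sparse. With at most 2 protein-coding genes within 500 kb, 4.44% of 5473 peaks were shared higher and 2.43% shared lower. With over 20 genes within 500 kb, the shares were 0.900% and 1.87% of 11665 peaks. The share of higher peaks fell at each step between these, through 2.84%, 2.37% and 1.53%, while the lower share moved between 2.13% and 2.49%. By chromosome, the higher share was largest on chromosomes 16 (5.96%) and 13 (4.78%) and smallest on 7 (0.389%). The lower share was largest on chromosome 7 (3.79%), followed by 15 (3.58%), and smallest on 16 (0.795%). Counts in a region also follow its copy number: on chromosome 16 the median centred level was 0.17 (log2) in 2838c3 and 0.50 in 2699c4, with 0.45 at the highest of the others. On chromosome 13 it was 0.36 and 0.30, with 0.32 at the highest of the others. On chromosome 7 it was -0.15 and -0.11, with -0.12 at the lowest of the others. Of 517 windows of 5 Mb, 5 had both clones above all others and 6 had both below. When each library was corrected by its own window medians, 1232 peaks were called higher and 1392 lower, and 1783 of the 2590 calls were the same peaks. In these bulk libraries a change in copy number, a change in accessibility per cell and a change in the share of cells of a type cannot be told apart.

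**Figure D3:**
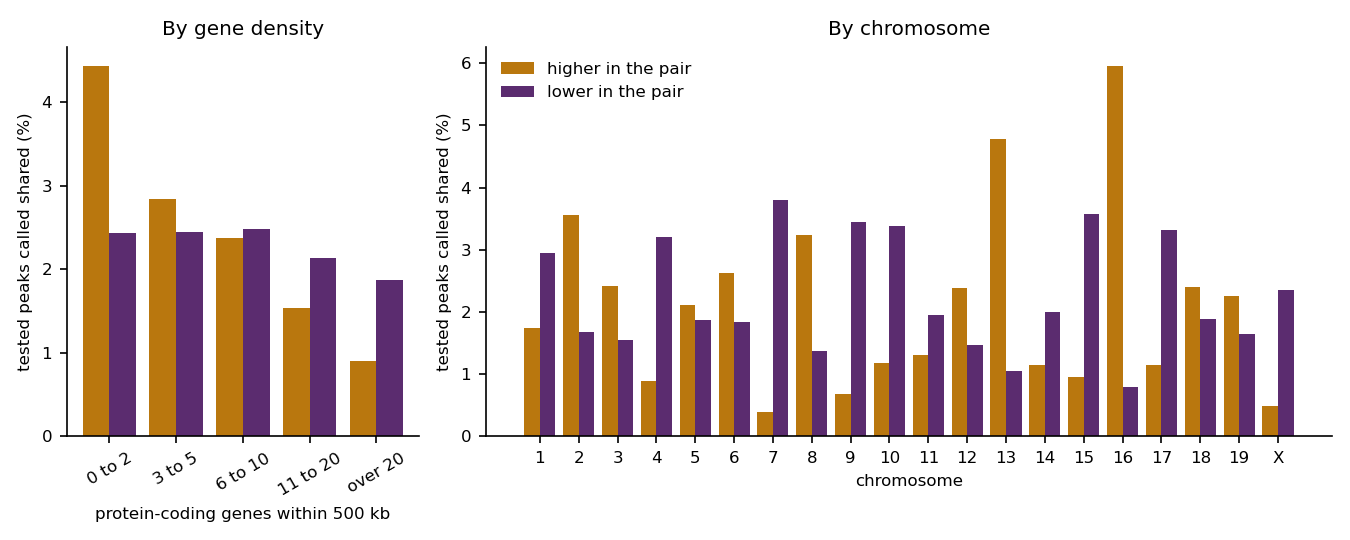
Percentage of tested peaks called shared by 2838c3 and 2699c4 (bars), by the number of protein-coding genes within 500 kb of the peak (left) and by chromosome (right; the 3 tested peaks of chromosome Y are not drawn). Shared higher peaks fall from 4.44% in the sparsest to 0.900% in the densest surroundings and reach 5.96% on chromosome 16.

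The strongest promoter gain was at Sox11, which encodes an HMG-box transcription factor of neural and other progenitor cells. Its peak (chr12:27342130-27343800) had 74.0 CPM in 2838c3 and 187 CPM in 2699c4, against 2.48 CPM at the lowest, 5.19 CPM at the median and 42.1 CPM at the highest of the other 11. The 2 clones stood clear of all others, and the fitted change was 3.48 on the log2 scale, with 2.57 for 2838c3 alone and 4.001 for 2699c4 alone. Sall1, a zinc finger transcription factor of organ development, followed (chr8:89042015-89044330). It had 77.7 CPM and 71.9 CPM, beside 0.865, 12.2 and 71.9 CPM (log2 change 1.88). Clone 6694c2 reached the level of 2699c4 at Sall1 to 3 digits, so this separation is marginal, and the log2 change was 2.27 without 6694c2.

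The promoter sequences of these genes, the largest promoter gains, are shown with those of Mei4, Sema5a, Nrxn3 and Sox21, the largest promoter losses, and of Wnt4, a WNT ligand described further on. They are 300-base windows from RefSeq on GRCm38.p6, the assembly that mm10 represents, written 5′ to 3′ on the gene's strand. Capitals mark a match to 1 of the 6 short motifs searched below, in either orientation. The windows are Sox11 at chr12:27342669-27342968 (minus strand), Sall1 at chr8:89044113-89044412 (minus), Mei4 at chr9:81863420-81863719 (plus), Sema5a at chr15:32244563-32244862 (plus), Nrxn3 at chr12:89812233-89812532 (plus), Sox21 at chr14:118236981-118237280 (minus) and Wnt4 at chr4:137277385-137277684 (plus).
Sox11: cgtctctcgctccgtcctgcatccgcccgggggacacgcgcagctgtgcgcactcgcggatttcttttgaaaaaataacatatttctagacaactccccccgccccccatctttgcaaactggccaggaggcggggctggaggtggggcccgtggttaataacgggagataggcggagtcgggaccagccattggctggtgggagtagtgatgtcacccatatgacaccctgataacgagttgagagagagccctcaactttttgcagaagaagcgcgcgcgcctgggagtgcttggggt
Sall1: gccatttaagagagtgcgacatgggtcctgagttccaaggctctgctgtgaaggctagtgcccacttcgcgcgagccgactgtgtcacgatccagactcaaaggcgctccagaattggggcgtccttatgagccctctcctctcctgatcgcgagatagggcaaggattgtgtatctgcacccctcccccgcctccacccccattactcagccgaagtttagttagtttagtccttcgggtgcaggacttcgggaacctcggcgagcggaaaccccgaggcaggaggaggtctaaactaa
Mei4: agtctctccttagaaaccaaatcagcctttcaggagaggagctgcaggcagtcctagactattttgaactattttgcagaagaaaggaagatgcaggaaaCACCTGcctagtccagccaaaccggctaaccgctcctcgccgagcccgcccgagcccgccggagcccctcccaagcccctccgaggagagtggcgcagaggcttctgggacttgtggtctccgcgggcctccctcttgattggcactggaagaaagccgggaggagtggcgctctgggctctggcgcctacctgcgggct
Sema5a: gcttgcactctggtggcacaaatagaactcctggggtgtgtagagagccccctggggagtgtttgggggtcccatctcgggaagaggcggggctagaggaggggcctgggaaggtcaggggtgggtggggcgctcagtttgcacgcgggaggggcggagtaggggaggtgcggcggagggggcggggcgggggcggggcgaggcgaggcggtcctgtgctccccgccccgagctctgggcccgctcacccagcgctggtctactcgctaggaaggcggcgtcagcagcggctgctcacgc
Nrxn3: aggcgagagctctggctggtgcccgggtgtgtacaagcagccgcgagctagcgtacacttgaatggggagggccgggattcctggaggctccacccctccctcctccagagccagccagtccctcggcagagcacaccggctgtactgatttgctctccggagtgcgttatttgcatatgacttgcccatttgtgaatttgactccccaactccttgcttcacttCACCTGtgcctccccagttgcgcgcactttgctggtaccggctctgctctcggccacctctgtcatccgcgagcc
Sox21: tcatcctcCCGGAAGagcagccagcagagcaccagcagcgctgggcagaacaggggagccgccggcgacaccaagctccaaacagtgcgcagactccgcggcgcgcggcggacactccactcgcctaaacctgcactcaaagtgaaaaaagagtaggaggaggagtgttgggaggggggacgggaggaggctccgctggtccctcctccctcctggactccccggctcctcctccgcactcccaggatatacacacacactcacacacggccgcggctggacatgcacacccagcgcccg
Wnt4: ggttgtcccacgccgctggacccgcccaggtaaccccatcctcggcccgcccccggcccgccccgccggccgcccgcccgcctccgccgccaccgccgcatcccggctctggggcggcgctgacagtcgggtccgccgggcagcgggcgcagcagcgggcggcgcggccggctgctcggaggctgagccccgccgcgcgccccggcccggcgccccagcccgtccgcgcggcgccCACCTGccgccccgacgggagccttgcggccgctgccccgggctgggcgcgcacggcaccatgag

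The other gains described at a promoter or gene end were smaller, with log2 changes from 1.11 to 1.67. Chrna1, the alpha subunit of the muscle acetylcholine receptor, had 70.3 CPM in 2838c3 and 44.7 CPM in 2699c4 at chr2:73580061-73581148, against 5.61, 27.0 and 38.9 CPM (log2 change 1.22, but 0.96 with window offsets and 0.87 with 2699c4 alone, both under the 2-fold limit). Gjc1, the connexin 45 gap junction gene, had 23.6 and 20.9 CPM at chr11:102818602-102819941, against 2.02, 6.19 and 18.7 CPM (1.67). At both the nearest other library lay close below the pair. Arap3, a GTPase-activating protein (chr18:37998286-37999234), and Klrc1, which encodes the receptor NKG2A (chr6:129678453-129679121), had log2 changes of 1.32 and 1.13. A peak at the end of the Gpr162 record and within 1 kb of Cd4 (chr6:124863426-124864241) had 14.3 and 18.5 CPM against 4.29, 7.31 and 11.6 CPM. It is the main peak assigned to Cd4, a T cell marker, and its part in the T cell content of the sorted cells was not tested. Clone 2699c4 had 30.7 CPM at Bcl11b, another T cell marker, above the 24.7 CPM of the highest other library, whereas 2838c3 had 2.65 CPM.

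Another 4 gains lay on chromosome 13. The histone H3 genes H3c6 and H3c8 and Abt1, an activator of basal transcription, neighbour each other there, and Sema4d, a semaphorin, lies elsewhere on it (chr13:51739571-51740235). H3c6 had 37.1 CPM in 2838c3 and 53.7 CPM in 2699c4, against a highest other value of 28.6 CPM. Histone genes have near-identical copies, so reads may be split or shared between them. The 5 Mb window that holds H3c6, H3c8 and Abt1 was raised as a whole in both clones, with medians of 0.45 in 2838c3 and 0.48 in 2699c4 over 179 peaks and 0.23 at the highest of the others. After correction for window medians the log2 changes of H3c6, H3c8, Abt1 and Sema4d were 0.76, 0.63, 0.63 and 0.69, all under the 2-fold limit.

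The largest losses at promoters had larger log2 changes than the largest gains, Sox11 excepted. The filter on low counts works by T cell class and asks for counts in more libraries than the pair holds. A peak open only in the pair could fail it, whereas one closed only in the pair could pass. Sizes of gains and losses are therefore not compared on equal terms. Mei4, a gene of meiotic recombination, had 0.531 CPM in 2838c3 and 0.698 CPM in 2699c4 (2 counts in each) at chr9:81863172-81864751, against 3.72, 9.64 and 28.0 CPM in the others, a log2 change of -4.33. Sema5a, a semaphorin of axon guidance, had 0.531 and 3.49 CPM at chr15:32244100-32245372, against 4.70, 30.3 and 70.2 CPM. Its log2 change was -4.03 (-3.83 with window offsets), with -5.82 for 2838c3 alone and -3.15 for 2699c4 alone. Of 10 peaks in or nearest to Sema5a, 3 were shared lower, this promoter among them, and 0 were called with window offsets. Summed over the 10 peaks, 3 of the other libraries overlapped the pair. Nrxn3, a presynaptic adhesion gene, had 0 CPM in 2838c3 and 3.49 CPM in 2699c4 at chr12:89811716-89812813, against 4.33, 29.7 and 39.7 CPM, a log2 change of -3.89, with -2.77 for 2699c4 alone and 0 counts in 2838c3. At both genes 2838c3 was lower than 2699c4, and the lowest of the other libraries came close to 2699c4. The Nrxn3 peak lies 522122 bp from the nearest gene end. Its promoter window, the one printed above, is therefore not at an end of the gene record. The same holds for the promoter peaks of Sema4d (53443 bp) and Denn2b (86725 bp).

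Sox21, an HMG-box factor like Sox11 but of another subgroup, moved the other way. It had 2.12 CPM in 2838c3 and 2.09 CPM in 2699c4 at chr14:118236165-118237502, against 2.20, 24.1 and 48.5 CPM, a log2 change of -3.45. Clone 2838c3 lay far under the 5 other T cell high clones there, and the T cell low clone 6419c5 was nearly as low as the pair, at 2.20 CPM. Ccdc149 had 5.84 and 4.19 CPM against 9.35, 34.6 and 91.5 CPM (-2.81). Pdzk1ip1, a small membrane protein gene, had 3.18 and 3.49 CPM against 12.5, 17.1 and 36.6 CPM (-2.70), and both clones stood clear of the nearest other library. Gldc, which encodes glycine decarboxylase, had 1.86 and 1.40 CPM against 2.58, 9.29 and 20.6 CPM (-2.71). Gng7, a G protein gamma subunit, Dnaja4, an HSP40 cochaperone, Denn2b, a DENN domain gene, Zfp580, a zinc finger gene, and Glipr1l1 had log2 changes from -3.31 to -2.73 on 4 to 13 counts in the 2 clones together. Leaving out any 1 of the other 11 libraries moved no named change by more than 1.45-fold.

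**Figure D4:**
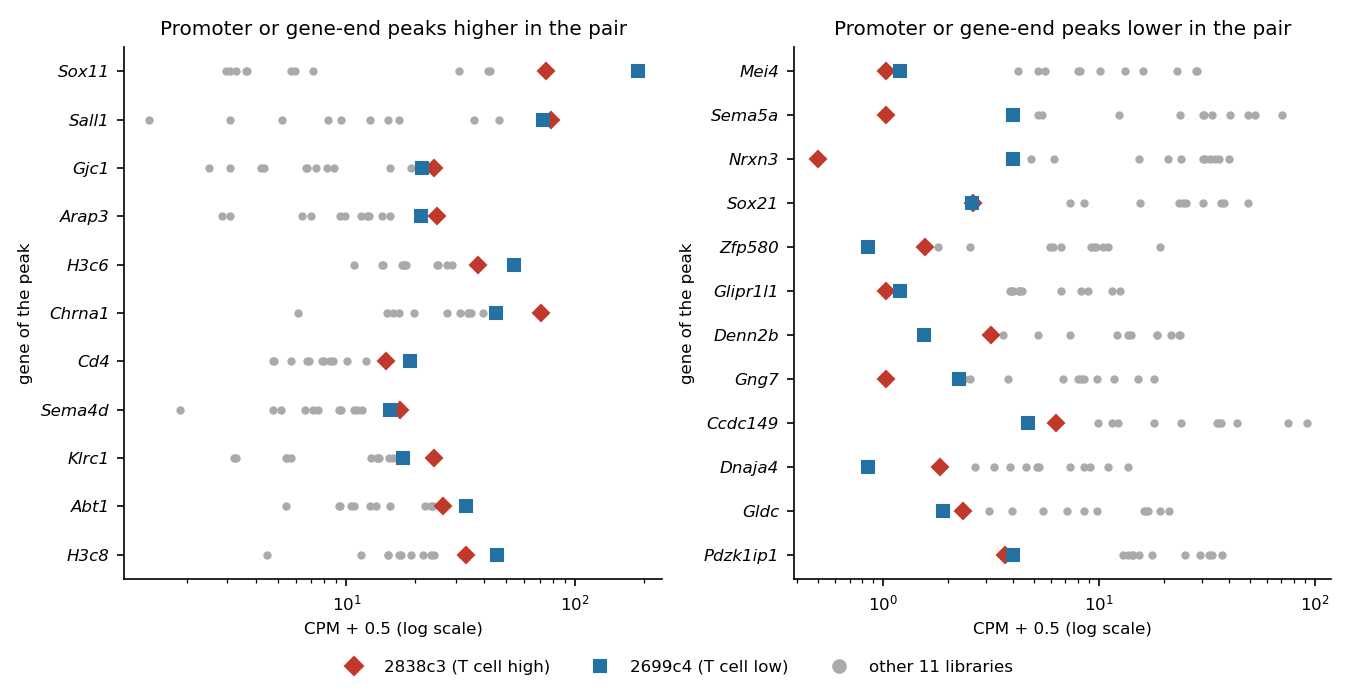
Accessibility of the described promoter or gene-end peaks in each of the 13 libraries, as CPM + 0.5 on a log axis, for peaks higher (left) and lower (right) in the pair; diamonds are 2838c3, squares 2699c4 and grey points the other 11. Sox11 shows the widest gain, with 74.0 and 187 CPM above 42.1 CPM, and Nrxn3 and Sema5a fall to 0 to 3.49 CPM where the median of the others is about 30 CPM.

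The named distal gains lay at very different distances from the ends of protein-coding genes, the only gene records used here. The nearest gene record was Grm7 at 353234 bp for chr6:110291309-110292115, which had 48.3 CPM in 2838c3 and 20.6 CPM in 2699c4 against 0.861, 3.00 and 18.6 CPM (log2 change 3.07, and 3.604 without 6694c2). It was Gata3, a transcription factor gene, at 715005 bp for chr2:9141248-9142073, with 59.7 and 34.9 CPM against 0.672, 5.61 and 15.99 CPM (3.07). A peak 2917 bp from Fabp4, a fatty acid binding protein gene (chr3:10211533-10212257), had 44.0 and 25.5 CPM against 1.33, 4.33 and 14.97 CPM (2.87). One 65806 bp from Sp4, a transcription factor gene (chr12:118367246-118368184), had 23.9 and 34.9 CPM against 1.72, 3.31 and 9.35 CPM (2.86). At Gata3, Fabp4 and Sp4 both clones were clear of the other 11.

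The 4 named distal losses were near the floor of detection, with 2 counts in the pair together at each. The pair's level was 0.0287 of that of the other 11 (95% exact counting interval 0.00346 to 0.104) at a peak 109145 bp from Gas1 (chr13:60286680-60287324). It was 0.0399 (0.0048 to 0.146) inside Ptprd (chr4:76913414-76914131). That peak lies in a 5 Mb window that was low as a whole in both clones, and its fitted log2 change, on 2 counts, went from -4.72 to -3.04 with window offsets. The ratio was 0.0371 (0.00446 to 0.135) near Adcyap1r1 (chr6:55575003-55575563) and 0.0336 (0.00405 to 0.123) near Lbp (chr2:158295373-158296128). These intervals cover counting error only.

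Several loci collected more than 1 shared peak, and the ones named here were chosen after their values were seen. Peaks were linked to the gene they lie in, or else to the nearest gene end within 100 kb. Ptprd, a receptor tyrosine phosphatase gene often lost in cancers, had 9 of 16 linked peaks shared lower. Its summed level was 133 CPM in 2838c3 and 103 CPM in 2699c4, below all others (189 to 516 CPM). The surrounding 5 Mb window had medians of -1.67 and -0.97, below the lowest other (-0.67), and 0 of the 9 calls remained with window offsets. Tent5a, a poly(A) polymerase gene, had 4 of 10 linked peaks lower, all 4 also with offsets, and summed to 31.3 and 36.3 CPM against 51.7 to 228 CPM. On the high side, 7 of 8 peaks linked to Ccdc54 on chromosome 16 were shared higher (174 and 213 CPM, others 76.6 to 122 CPM), and 3 of them with offsets. F13a1, the coagulation factor XIII A subunit, had 5 of 8 (136 and 120 CPM, others 23.7 to 77.97 CPM), and 2 of them with offsets. Ksr2, a scaffold of the RAS-MAPK cascade, had 3 of 7 (97.3 and 149 CPM, others 5.17 to 91.7 CPM), and Ednra, the endothelin A receptor, had 3 of 6. At each of these, 2 of the 3 calls were made with offsets. Of 15468 genes with a linked peak, 810 had a shared higher and 1027 a shared lower one, and 70 had both.

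Gene lists were then read at 1 promoter or gene-end peak per gene, the one of highest mean count. Over all 11987 genes with such a tested peak, 26 were shared higher (0.217%) and 103 shared lower (0.859%). The median change was 0.08 and 58.4% of genes were above 0. The WNT pathway had 3 of 21 genes shared lower and 0 shared higher, and all 3 encode ligands. Wnt7b had 2.12 CPM in 2838c3 and 6.63 CPM in 2699c4 against 8.05, 14.3 and 30.6 CPM (log2 change -1.94). Wnt4 had 4.51 and 5.58 CPM against 7.79, 11.6 and 31.9 CPM (-1.67). Wnt5b had 7.43 and 6.98 CPM against 7.73, 15.5 and 28.9 CPM (-1.13), barely under the lowest other library and -0.996 without 6419c1, which is under the 2-fold limit. The WNT list as a whole did not move with them. Its median was -0.11 and changed sign between the clones (-0.46 with 2838c3 alone, 0.04 with 2699c4 alone). Axin2, a WNT target, had 18.8 CPM in 2838c3 and 2.79 CPM in 2699c4, the latter below the 9.41 CPM of the lowest other.

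Epithelial identity genes were mostly below the others, by small amounts. Of 24, 20 had a change under 0, and the median was -0.39 (-0.67 with 2838c3 alone, -0.27 with 2699c4 alone). Cdh3 (P-cadherin) was the 1 member shared lower, with 5.84 and 7.33 CPM against 10.01, 13.1 and 32.3 CPM. Cldn7, a tight junction claudin, had 1.06 and 2.09 CPM against 0.340, 6.55 and 22.99 CPM, inside the range of the others. St14, the protease matriptase, had 1.06 and 3.49 CPM against 2.38, 8.40 and 29.0 CPM, also overlapping. Cdh1, Krt8 and Krt18 had changes between -0.23 and -0.22. At Krt19, 2838c3 was below all 11 others and 2699c4 was within their range. On the list's centred median, 2838c3 (-0.44) was below all 11 others and 2699c4 (-0.07) was among them. The 7 tested surface genes of classical pancreatic cancer had a median of -0.85, and on this list both clones (-0.65 and -0.40) were below all 11, the nearest being 6694c2 (-0.36). By summed level they were not: the 7 peaks had 161 CPM in 2838c3 and 151 CPM in 2699c4, and 132 CPM in the lowest other library. Dmbt1, a mucin-like scavenger gene, was shared lower with 2.12 and 6.98 CPM against 10.7, 15.5 and 26.0 CPM. Lgals4, a galectin, had 0 and 3.49 CPM against 2.72, 11.6 and 20.8 CPM.

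Mesenchymal and EMT lists showed 0 shared peaks in either direction. Twist1 was nearly closed in 2838c3 alone (0.531 CPM) and had 25.8 CPM in 2699c4, with 5.37, 36.0 and 56.4 CPM in the others. Col1a1 was above all others in both (34.5 and 38.0 CPM, highest other 32.0 CPM), but by a log2 change of 0.51. In the endoderm and pancreas list, with 0 shared of 14, Sox17, a factor of definitive endoderm, was at 0 CPM in 2838c3 and 4.54 CPM in 2699c4, with 0, 6.55 and 51.0 CPM in the others. The axon guidance and neural adhesion list had 2 of 28 shared lower, Sema5a and Nrxn3, and a median of -0.14. The Sema5a peak was not called with window offsets. Plxnd1, a semaphorin receptor, had 80.9 and 89.0 CPM, above the 67.9 CPM of the highest other, with a change of 0.72. Pcdh7, a protocadherin, separated the 2 clones, with 2.12 CPM in 2838c3 and 62.8 CPM in 2699c4.

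Among signalling lists, 11 of 13 NOTCH pathway genes had a change above 0, with a median of 0.33 (0.13 with 2838c3 alone, 0.25 with 2699c4 alone) and 0 shared. The ligand Dll4 had 14.6 and 35.9 CPM against 1.72, 11.7 and 29.9 CPM. Of the targets, Hes1 had 63.4 and 87.9 CPM against 44.9, 54.5 and 72.2 CPM, and Hey2 went the other way with 20.7 and 27.2 CPM against 20.4, 44.9 and 106 CPM. On the list's centred median both clones (0.24 and 0.22) exceeded 10 of the 11 others, and 2699c4 had 0.20 over all genes. RAS-MAPK feedback and AP-1 genes had 21 of 25 above 0 and a median of 0.21, also with 0 shared. The phosphatase gene Dusp4 had 94.2 and 104 CPM, above the highest other (93.4 CPM), and Dusp5 had 75.3 and 115 CPM against 37.0, 58.3 and 85.7 CPM. The TGF-beta and BMP list (median 0.10), the Hippo list (-0.08) and the basal and squamous list (0.10) were near the median of all genes, each with 0 shared. Bmp2 had 31.6 and 27.6 CPM against 1.72, 12.6 and 39.7 CPM.

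The lists of immune-related genes that tumour cells can express held 0 shared peaks. MHC class I antigen presentation had a median of 0.18 with 14 of 21 genes above 0, and it was -0.03 with 2838c3 alone. The interferon response list had a median of 0.03, and Bst2 (tetherin) was above all others by a small margin (38.2 and 45.7 CPM, highest other 37.3 CPM). Myeloid-recruiting factors had a median of 0.01, with Cxcl5 at 10.3 and 7.33 CPM against 9.35, 14.2 and 25.3 CPM. The 6 tested T cell and dendritic cell chemokine genes had a median of -0.41, with Cxcl16 at 10.6 and 14.7 CPM against 10.4, 19.8 and 43.9 CPM. Checkpoint genes had a median of -0.26, which was 0.01 with 2699c4 alone. Cd274 (PD-L1) had 26.5 CPM in 2838c3, above all others, and 16.7 CPM in 2699c4, within the 8.85 to 17.8 CPM of the 11. The prostaglandin and EphA2 list had a median of -0.27. Glycolysis and hypoxia (0.19), cell cycle (0.16) and housekeeping genes (0.13) had medians above 0, as did all genes, though with 2838c3 alone the housekeeping median was -0.19. Clone 2699c4 had a centred median of 0.20 over all genes.

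**Figure D5:**
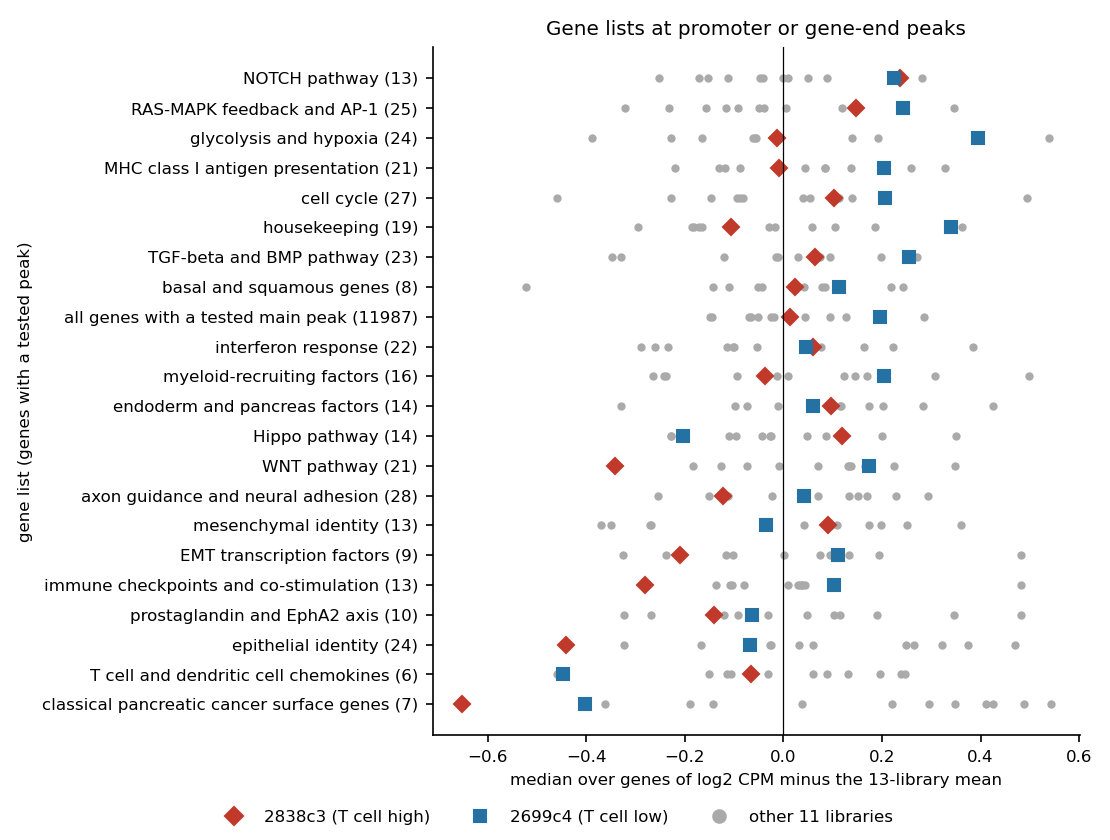
Median over the genes of each list of log2 CPM minus the 13-library mean (x axis), for 21 lists and all genes; diamonds are 2838c3, squares 2699c4, grey points the other 11, and numbers in brackets are genes with a tested peak. On this median both clones lie below all others at classical pancreatic cancer surface genes, though not by summed CPM, and above 10 of 11 at NOTCH pathway genes, where 2699c4 (0.22) is close to its median over all genes (0.20).

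The motifs searched numbered 6, on both strands of the promoter windows. The E-box of ZEB and SNAI factors was searched as CAGGTG. The element bound by AP-1 factors was searched as TGANTCA. The element of TEAD factors, which act with the Hippo pathway, was searched as GGAATG. The GATA, forkhead and ETS family elements were searched as AGATAA for the first, as TGTTTAC for the forkhead factors, and as CCGGAAG for the last. No motif contains another. CAGGTG was found in 25 of the 80 windows with a shared lower peak (31.3%), in 5 of the 18 with a shared higher peak (27.8%), in 17.5% of 9948 windows with a tested peak and in 20.2% of all 32851 windows. GGAATG was found in 18 of the 80 lower windows (22.5%) and 0 of the 18 higher ones, beside 11.6% and 14.7%. CCGGAAG was found in 5 of 80 (6.25%) and 1 of 18, beside 19.1% and 8.86%. TGANTCA was found in 8 of 80 (10%), beside 5.46% of windows with a tested peak and 7.81% of all. AGATAA was found in 4 of 80 (5%), beside 5.53% and 11.2%, and TGTTTAC in 2 of 80 (2.5%), beside 2.46% and 3.65%. The lower windows also had fewer CpG dinucleotides, with a median ratio of observed to chance CpG of 0.513 against 0.781 in windows with a tested peak, and a median GC content of 56.7% against 61.7%. Whether base composition goes with the motif shares was not tested. Of the promoters printed above, Mei4, Nrxn3 and Wnt4 each held CAGGTG once, Sox21 held CCGGAAG once, and Sox11, Sall1 and Sema5a held none of the 6.

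The last comparison leaves the pair out of the fit and asks where its clones lie at peaks that separate the T cell classes among the other 11. The edgeR quasi-likelihood test called 25 of 55388 peaks at a Benjamini-Hochberg adjusted p under 0.05 (0.0451%), 21 higher and 4 lower in T cell high, and 5374 had an unadjusted p under 0.05. DESeq2 called 383. The count depended on single libraries: it was 0 without 6555c3 or 6419c1, 2 without 6694c2, 6 without 6499c4, 15 without 6620c1, 77 without 6419c5 and 121 without 6421c2. Several of the 21 higher peaks lie in and beside Pdzrn3 (chr6:101271526-101532204), with 2838c3 low at each of these, so the 21 are not separate loci. At the 21 higher peaks, 2838c3 lay at or under the highest of the other T cell low clones at 18, and it reached the lowest of the other T cell high clones at 2. Clone 2699c4 lay within or under the T cell low range at 15 and reached the T cell high range at 0. The level of 2838c3, the T cell high clone, was below that of 2699c4 at 16 of the 21. The pair was chosen as alike over all peaks, these included, so its positions here are not independent of that choice. The 21 peaks were picked because the other clones of the 2 classes lie apart there. The share of all tested peaks with such positions was not computed, so these counts are descriptions. Whether the pair departs from its classes more at these peaks than elsewhere was not tested.

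At Pdzrn3, a ubiquitin ligase gene (peak chr6:101271526-101272520 inside the gene), the other T cell high clones had 39.1 ± 20.8 CPM (SD, n = 5) and the other T cell low clones 5.51 ± 2.46 CPM (SD, n = 6), with an edgeR adjusted p of 0.0133. There 2838c3 had 1.86 CPM and 2699c4 3.84 CPM. Both 6419c1 and 6419c5 count in the 6; whether they derive from 1 tumour is not given in the sources used here, and the p-values treat them as independent. At the promoter of Cldn3, a tight junction claudin (chr5:134985631-134986567), the groups had 46.2 ± 27.9 and 5.78 ± 4.70 CPM (adjusted p 0.0209), and the pair 2.65 and 9.42 CPM. At Skint6, a butyrophilin-like gene (chr4:113262629-113263262), they had 19.4 ± 10.5 and 2.83 ± 1.14 CPM (adjusted p 0.0209), and here the pair followed its classes, with 10.6 CPM in 2838c3 and 0.698 CPM in 2699c4. At a peak inside Pax2, a transcription factor gene of kidney and pancreatic islets, T cell high clones were the lower ones (4.40 ± 2.59 against 28.0 ± 9.91 CPM, adjusted p 0.0209), and both clones were high, with 22.02 and 20.2 CPM. Near Khdc1a and Arrdc4 2838c3 had 3.45 and 1.59 CPM, below the lowest other T cell high clone at each (17 and 6.12 CPM). The peak near Adcyap1r1 named above among the distal losses was also 1 of the 25. With all 13 libraries and a term for the pair, edgeR called 1 of 59198 peaks (0.00169%), the Skint6 peak, with an adjusted p of 0.0375, and 4570 had an unadjusted p under 0.05. That count was 2 without 6499c4, 1 without 6421c2 and 0 without any other library outside the pair, and DESeq2 called 90. Without 1 clone of the pair, the term takes up the other clone alone. The test is then in effect the one that leaves out the pair, so it is no check of the test with all 13 libraries.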

How the data were processed

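Reads per merged peak were counted by the authors with featureCounts 1.5.3, per the file headers, and deposited as whole-number counts without normalization. The submitters' processing notes name mm10 and DESeq2. No label or header gives the aligner, the peak caller or whether reads were shifted for the transposase (not given in the sources used here). All 13 columns of counts were matched to a clone by its name. Reads are not independent molecules.

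The pair, the gene lists and the tests were chosen with earlier results of these data known. Peaks were filtered (edgeR 4.0.16, filterByExpr by class), scaled by TMM and fitted with glmQLFit in R 4.3.3, with a prior count of 2 for log2 CPM. T cell class was tested by the two-sided quasi-likelihood F-test, adjusted by Benjamini-Hochberg, with DESeq2 1.42.0 and limma 3.58.1 (voom) as alternatives, on each clone as 1 replicate. These p-values measure the spread between clones. The procedures were also run on simulated counts. These had a fixed dispersion, changes at well-covered peaks only and no regional copy number changes, so they give no error rate for the present data. Replicate numbers, in accession order and in the column headers, name different clones and were not used as pairs. Whether clones with the same first digits in their names derive from 1 tumour is not stated.

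Genes and promoter windows came from RefSeq tables of GRCm38.p6, and peaks were placed by protein-coding genes only. A gene's peak overlaps its promoter window, or lies within 1 kb of a gene end where the table gives no window, and the peak of highest mean count was used. The 31 lists held 643 genes, of which 642 matched by symbol and 389 had a peak. Named peaks were the 12 gene peaks in each direction, and the 4 distal peaks, with the largest change among shared peaks of at least 5 CPM on average, the 2 largest changes per list and the 10 smallest p of each class test. That only a gene's main peak counts under this rule was settled after values had been seen. Not every peak under the rule is described, and 1 of them is not reported here. Exons, introns and sequences of distal peaks were not analysed here.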

Additional observations from a re-analysis of the deposited data

Results flagged for a closer look

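Values were examined in 74 groups (each measure in the 6 T cell high and in the 7 T cell low libraries) for a sample standing far from the rest of its group, by the gap to the nearest other sample as a share of the range. Chance gives about 1 such value in 20 groups, but that rate does not apply here: 9 were found, and 8 of them are at peaks named because both clones of the pair lay outside all others. The 7 values in the pair are therefore descriptions. Clone 2838c3 was the lone low T cell high library at Mei4 (0.531 CPM), Sema5a (0.531 CPM), Gng7 (0.531 CPM), Sox21 (2.12 CPM) and Ccdc149 (5.84 CPM), and the lone high one at the distal peak nearest Grm7 (48.3 CPM). Clone 2699c4 was the lone low T cell low library at Pdzk1ip1 (3.49 CPM). Outside the pair, 6499c3 was low at Arap3 (2.35 CPM), and the total of 6419c1 was the highest of its group at 7369228 counts.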

How the results depend on the processing

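The most alike pair across T cell classes remained 2838c3 with 2699c4 under all 5 alternatives (Spearman rho 0.310, promoter and gene-end peaks 0.251, distal peaks 0.341, thinned libraries 0.260, window offsets 0.344). Shared higher and lower peaks numbered 1254 and 1336 of 59198 tested peaks in the main setting. With at least 10 counts in every library they numbered 118 and 420 of 20218. After thinning every library to the smallest total they numbered 374 and 686 of 29570, and with a fold of 4, 150 and 488 of 59198. The higher count fell more than the lower one under each of these settings. Without a filter on low counts the numbers were 1502 and 1429 of 67879. Leaving out 1 of the other 11 libraries gave 1198 to 1525 higher and 1363 to 1627 lower. Without a clone of the pair the call rests on the other clone alone. It then gave 2320 higher and 3866 lower without 2838c3, and 3710 and 4274 without 2699c4. The filters, the thinning and the leave-outs also change how many peaks are tested, and the part of depth was not tested. The prior count cannot change these calls by its construction.

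The class test among the other 11 called 0 peaks with at least 10 counts in every library (edgeR, 1745 at an unadjusted p under 0.05), 15 with window offsets, 101 with limma-voom and 383 with DESeq2, and 0 to 121 when 1 library was left out (4249 and 4258 at an unadjusted p under 0.05 where it called 0). With the term for the pair, edgeR called 0 under the stricter filter (1390 unadjusted) and 0 with offsets (4091 unadjusted), DESeq2 called 90, and leaving out 1 library gave 0 to 23. The cause was not tested.

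List medians were recomputed under alternatives chosen after seeing the data. When 1 library was left out, they ran from -0.67 to -0.27 for epithelial identity, -1.27 to -0.51 for classical pancreatic cancer surface genes, -0.37 to 0.14 for basal and squamous genes, -0.46 to 0.042 for the WNT pathway, -0.29 to 0.020 for the Hippo pathway, 0.13 to 0.35 for the NOTCH pathway, -0.032 to 0.22 for MHC class I, -0.65 to -0.21 for T cell and dendritic cell chemokines, -0.41 to 0.0089 for checkpoints and -0.19 to 0.31 for housekeeping. Most ends of these ranges came from leaving out a clone of the pair. The checkpoint median was -0.020 with window offsets. Of 87 named peaks, log2 changes reversed at Cdk6 (-0.11 with offsets; -0.33 to 1.46 leaving out 1 library), Mcam (0.12 with offsets), Hoxa10 (-0.20 to 0.32), Car9 (-7.59 to 0.15), Bcl11b (-2.36 to 1.20), Cd68 (-0.53 to 1.14), Twist2 (-0.62 to 0.29) and Ivl (-0.72 to 0.30). The cause was not tested. The column headers number the libraries within each class, with different clones under each number. With these numbers as a replicate block, chosen after seeing the data, edgeR called 0 class peaks among the other 11 (4738 at an unadjusted p under 0.05). Outside the pair, deviations of same-numbered libraries correlated at -0.053 to 0.11 over 5 numbers. There 1 of 5 T cell high libraries correlated best with its own number. The numbers were not taken as pairs. The pair holds the first number in both classes, so its term and the replicate block could not be fitted together. That number was also left out of the check of deviations. The pair, chosen as alike, had r = 0.295 between its differences from the own classes. Whether its shared number goes with this likeness was not tested.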
